A study of Homo sapiens with 2 samples.

Results

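SPRR1B-positive cells were set against SPRR1B-negative cells within C1-sgControl, the control-guide line of C1, an epithelial clone of HMLER; HMLER cells are human mammary epithelial cells that were immortalised and transformed with RAS. Positive cells were those with at least 2 SPRR1B UMIs (unique molecular identifiers, each standing for 1 captured RNA molecule), and negative cells those with 0. They were selected on that count alone, so the SPRR1B level of the groups is a description and SPRR1B is left out of every result. There were 221 positive and 1201 negative cells among 1636 C1-sgControl cells, 214 cells with 1 SPRR1B UMI lay in between, and the 3 labelled lines held 6025 cells in all. Cells of C1-sgEED (knockout of EED, a core subunit of the repressive Polycomb complex PRC2; 2168 cells) and C1-sgKMT2D (knockout of KMT2D, a histone methyltransferase of enhancers; 2221 cells) were in the same tube. Each line got its own hashtag antibody, and the pool gave a single pair of libraries (gene expression and hashtags). A line is therefore 1 sample, differences have no replicate check, and intervals cover counting error only. Library titles call the clones mixed, without saying how many stand behind a guide. All lines were grown in the same medium with insulin, EGF and hydrocortisone.

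SPRR1B (small proline-rich protein 1B) is a precursor of the cornified envelope, the crosslinked protein shell that stratified squamous epithelia such as epidermis build beneath the plasma membrane. In such tissue, basal keratinocytes divide while attached to the basement membrane through hemidesmosomes, then leave the cell cycle and switch on suprabasal keratins, desmosomal proteins, envelope precursors, transglutaminases that crosslink them, and the proteases and inhibitors that control shedding. Normal mammary epithelium is glandular and does not cornify, but cultured mammary epithelial cells and some breast carcinomas can take on squamous features.

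The groups had similar depth. The median cell held 5694 UMIs in positive and 5825 UMIs in negative cells, and cells ranged over 2214 to 16037 UMIs in positive and 2006 to 13988 UMIs in negative cells. Mitochondrial UMIs made up a median of 8.73% in positive and 8.08% in negative cells. No barcode occurred more than once in the matrix. SPRR1B itself stood at 804 CPM (counts of the gene per 1000000 gene UMIs of the group) in positive cells, and the highest cell had 43 of its UMIs. Positive cells comprised 94 cells with 2 UMIs, 75 with 3 to 5 and 52 with 6 or more, and these classes reached 323, 640 and 1781 CPM of SPRR1B. The cells just outside the threshold, with 1 UMI, stood at 165 CPM. SPRR1A, its close copy, had 5 UMIs in positive and 0 in negative cells, and reads of such copies can be split or lost in counting.

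In C1-sgEED cells 1.85% were positive (exact Clopper-Pearson 95% interval 1.32 to 2.5, median depth 4081 UMIs) and in C1-sgKMT2D cells 0.720% (0.412 to 1.17, median 5709 UMIs), against 13.5% in C1-sgControl cells (11.9 to 15.3). With every cell thinned to an equal depth of 2000 UMIs, the share was 0.876% in C1-sgEED (0.528 to 1.37), 0.0900% in C1-sgKMT2D (0.0109 to 0.325) and 5.99% in C1-sgControl (4.89 to 7.25). Cells with more mesenchymal than epithelial list UMIs made up 1073 of 2168 C1-sgEED cells and 1231 of 2221 C1-sgKMT2D cells, against 73 of 1636 C1-sgControl cells. Among cells with more epithelial list UMIs alone, 3.43% of C1-sgEED (2.42 to 4.69) and 1.65% of C1-sgKMT2D cells (0.944 to 2.66) were positive, against 13.8% of C1-sgControl cells (12.2 to 15.7). The knockout lines thus had lower shares than C1-sgControl in each of these counts, by less among epithelial cells. As a level of free RNA, knockout-line cells with more mesenchymal than epithelial list UMIs were used, which were assumed to lack SPRR1B. Of 1073 such C1-sgEED cells 3 were positive (0.280%, interval 0.0577 to 0.815, median depth 3661 UMIs). Of 1231 such C1-sgKMT2D cells 0 were positive, which allows a share of up to 0.244% (3 counts of the total, median depth 4875 UMIs). In C1-sgControl, however, 6 of 73 such cells were positive (8.22%, interval 3.08 to 17.0, median depth 4990 UMIs). The assumption thus did not hold for this class in every line, and the level of free RNA was not tested further.

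As a group, positive cells had higher levels of squamous keratins, envelope precursors, desmosomal proteins and antimicrobial proteins, and lower levels of mitotic genes. At least 6 of 16 squamous markers were found in only 15 of the 221 positive cells. The basal keratins KRT5 and KRT14 and basal integrins stood near the level of negative cells, while KRT15, another basal keratin, was higher. Levels were compared as CPM, with a gene called higher or lower where its log2 ratio (1 CPM added to both groups) passed 1.5-fold. Of 5327 genes of at least 20 CPM in either group, 235 (4.41%) were higher and 383 (7.19%) were lower in positive cells. The median gene stood at a log2 ratio of -0.10, and centred on that median 314 genes were higher and 254 lower, so higher calls made up 55.3% of calls in place of 38.0%. With the 20 CPM asked of both groups as one, 128 were higher and 346 lower, which makes 27.0% of calls higher. Gene lists were read at 10 CPM in either group, where 455 of 7789 genes (5.84%) were higher and 733 (9.41%) lower, at a median log2 ratio of -0.09. A gene that is high in 1 group only can pass such a floor through that group alone, so each list is given with the number that did. A gene named as higher or lower is so at 1.5-fold, and ranges in parentheses after a fold are exact 95% intervals of the counts.

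**Figure D1:**
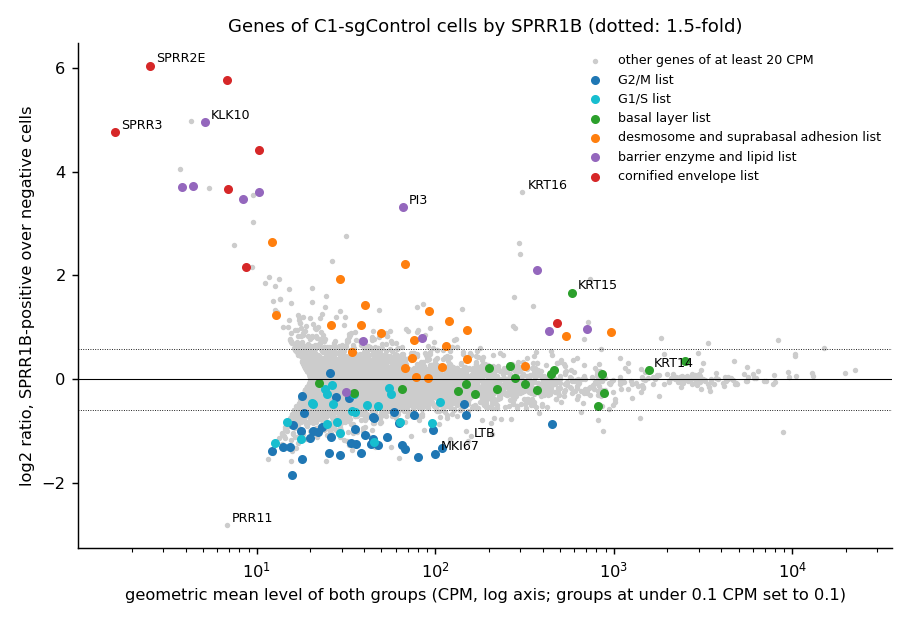
Each point is a gene of at least 20 CPM in positive or negative C1-sgControl cells; the horizontal axis is its geometric mean level (CPM, log axis) and the vertical axis its log2 ratio of positive over negative cells, with 6 gene lists in colour and dotted lines at 1.5-fold. Envelope (red) and barrier genes (purple) lie at the upper left, mostly at low levels, KRT16 and PI3 stand out at higher levels, and the G2/M list (blue) lies below 0.

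Keratins came first by amount. KRT16, a type I keratin of activated and hyperproliferative suprabasal cells, reached 1072 CPM in positive and 87.7 CPM in negative cells, 12.2-fold higher (11.1 to 13.5), and had a UMI in 142 of 221 positive and 306 of 1201 negative cells. Its partner KRT6B stood at 694 CPM in positive and 129 CPM in negative cells, 5.39-fold higher (4.92 to 5.91). KRT6A and KRT17, already abundant in every group, differed less. KRT6A had 4278 CPM in positive and 2643 CPM in negative cells (1.62-fold, 1.57 to 1.67), and KRT17 had 10769 CPM in positive and 6387 CPM in negative cells (1.69-fold, 1.65 to 1.72). KRT10, the type I keratin of normal suprabasal epidermis, stood at 328 CPM in positive and 260 CPM in negative cells, 1.26-fold apart and short of the call. Of 15 squamous keratins, 5 reached 10 CPM, each in both groups, and 4 of these were higher. KRT1, the usual partner of KRT10, had 1 UMI in all negative cells and none in positive cells. KRT6A, KRT6B and KRT6C, and KRT16 and KRT17, are close in sequence, so their counts as single genes are uncertain.

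KRT16 followed SPRR1B in steps. It stood at 87.7 CPM in cells with 0 SPRR1B UMIs, 238 CPM with 1, 220 CPM with 2, 508 CPM with 3 to 5 and 3139 CPM with 6 or more. Thus cells just inside the threshold stood level with those just outside it, and the top class held most of the difference. KRT6B had a more even course of 129, 254, 313, 526 and 1514 CPM over the same classes. PI3 (elafin, an elastase inhibitor and transglutaminase substrate) differed in this respect: it stayed at 20.6 and 21.6 CPM in cells with 0 and 1 UMI, then stood at 91.1, 144 and 493 CPM. The classes from 0 to 5 UMIs had median depths between 5209 and 5825 UMIs and the top class 7142.5 UMIs; the part of depth in the top class was not tested.

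**Figure D2:**
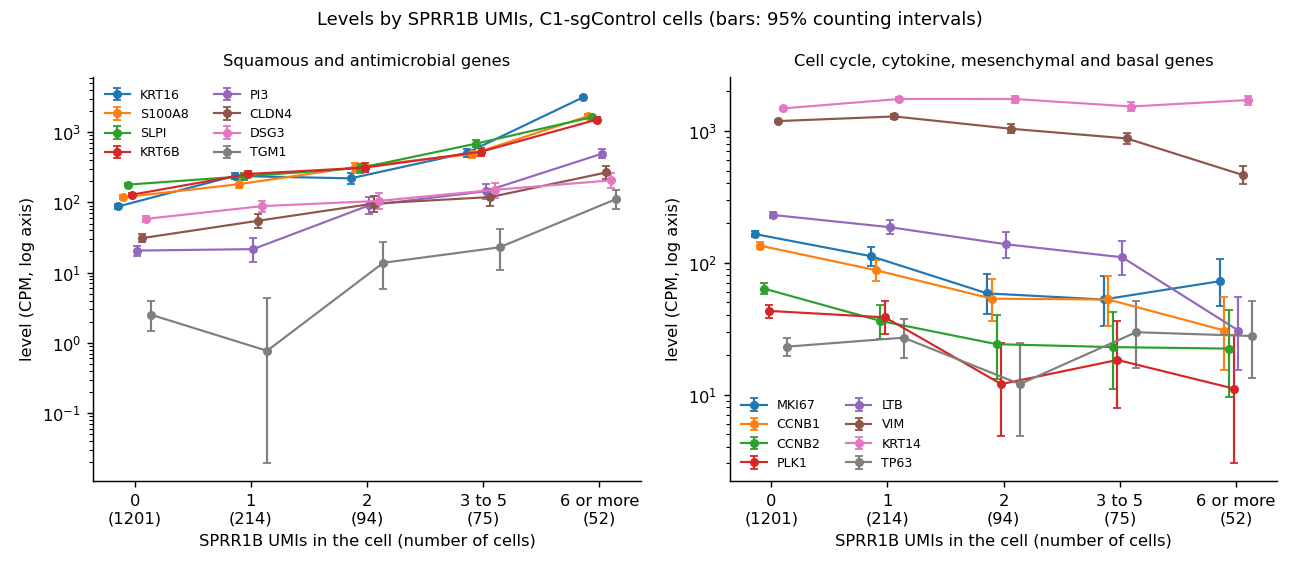
Levels (CPM, log axis) of 8 squamous or antimicrobial genes, left, and of 8 cell cycle, cytokine, mesenchymal and basal genes, right, in C1-sgControl cells grouped by SPRR1B UMIs (cell numbers in brackets; bars are exact Poisson 95% intervals). KRT16 stands at 3139 CPM in the class with 6 or more UMIs and at 87.7 CPM in the class with 0, CCNB1 at 30.6 CPM in the top class and 135 CPM in the class with 0, and KRT14 at 1712 CPM in the top class and 1479 CPM in the class with 0.

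Envelope precursors were detected in few cells. Of 31 listed genes, 12 reached 10 CPM, 11 of them only through positive cells, and 11 were higher; with the floor set on both groups together 5 passed and 4 were higher. SPRR2D had 116 UMIs in 17 positive cells and 4 UMIs in 4 negative cells. SPRR2E had 89 UMIs in 9 positive cells and none in negative cells, at least 154-fold higher when 3 counts are taken for the negative group, and 1 cell gave 50.6% of them. These values come from few cells, and because members of the SPRR2 family share most of their sequence, their counts as single genes are uncertain. SPRR3 had 36 UMIs in 5 positive cells, all in the class with 6 or more SPRR1B UMIs, and none in negative cells. Involucrin (IVL), the early scaffold of the envelope, was spread more widely: 22 of 221 positive and 23 of 1201 negative cells had a UMI, at 20.3 CPM in positive and 3.77 CPM in negative cells, 5.38-fold higher (3.06 to 9.49). The member with a high level in both groups was CSTA (cystatin A, a protease inhibitor crosslinked into the envelope), with 703 CPM in positive and 333 CPM in negative cells, 2.11-fold higher (1.96 to 2.28). The filaggrin genes were close to absent: FLG (filaggrin) had 0.726 CPM in positive cells and no UMI in negative cells, and FLG2 had no UMI in positive and 2 UMIs in negative cells.

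The promoters of 3 envelope precursors that share a place on chromosome 1 and of SBSN (suprabasin, on chromosome 19) are shown because each holds a match to the AP-1 motif TGANTCA, the site of FOS and JUN dimers, and that of CCNB1 (cyclin B1) as one from the lower genes without a match. Each runs 5′ to 3′ from 250 bases before to 50 bases after the gene's start, from RefSeq on GRCh38.p14, with the AP-1 letters in capitals. SPRR1B lies at chr1:153030953-153031252 (plus strand), IVL at chr1:152908296-152908595 (plus), SPRR3 at chr1:153001499-153001798 (plus), SBSN at chr19:35528262-35528561 (minus) and CCNB1 at chr5:69166900-69167199 (plus).
SPRR1B: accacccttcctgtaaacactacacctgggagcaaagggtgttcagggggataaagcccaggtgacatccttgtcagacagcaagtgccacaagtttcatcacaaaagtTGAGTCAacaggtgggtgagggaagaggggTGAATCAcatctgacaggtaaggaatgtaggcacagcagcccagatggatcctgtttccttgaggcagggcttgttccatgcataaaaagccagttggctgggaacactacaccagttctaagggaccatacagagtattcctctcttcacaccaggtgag
IVL: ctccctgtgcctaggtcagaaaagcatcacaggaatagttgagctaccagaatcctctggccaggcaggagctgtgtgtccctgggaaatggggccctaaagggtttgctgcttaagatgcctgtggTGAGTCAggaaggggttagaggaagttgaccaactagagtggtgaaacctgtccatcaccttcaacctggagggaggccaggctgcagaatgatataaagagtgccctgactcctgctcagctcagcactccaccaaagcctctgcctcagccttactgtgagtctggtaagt
SPRR3: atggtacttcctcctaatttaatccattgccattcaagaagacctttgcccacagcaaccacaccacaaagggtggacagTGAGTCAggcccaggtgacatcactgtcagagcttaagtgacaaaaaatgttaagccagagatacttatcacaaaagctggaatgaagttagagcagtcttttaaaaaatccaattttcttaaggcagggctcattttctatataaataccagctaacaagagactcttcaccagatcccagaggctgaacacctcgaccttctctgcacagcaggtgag
SBSN: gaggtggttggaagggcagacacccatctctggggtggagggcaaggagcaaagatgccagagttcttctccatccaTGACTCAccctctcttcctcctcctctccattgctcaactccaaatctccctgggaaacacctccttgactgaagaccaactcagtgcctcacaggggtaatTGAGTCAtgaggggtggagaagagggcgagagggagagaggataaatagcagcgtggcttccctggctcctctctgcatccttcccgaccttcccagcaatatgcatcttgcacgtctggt
CCNB1: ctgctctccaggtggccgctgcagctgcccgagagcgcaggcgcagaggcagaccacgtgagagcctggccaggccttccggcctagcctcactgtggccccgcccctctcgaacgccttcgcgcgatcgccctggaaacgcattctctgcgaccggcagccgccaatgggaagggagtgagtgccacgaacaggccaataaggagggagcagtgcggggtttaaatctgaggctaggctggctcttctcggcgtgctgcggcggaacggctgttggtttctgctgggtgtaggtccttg

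Counted from the start of the gene, the first AP-1 letter stood at -141 and -111 in SPRR1B, at -123 in IVL, at -170 in SPRR3, and at -173 and -71 in SBSN. Of 28 genes looked up (the 15 highest genes and 13 others set aside because 1 cell gave over 20% of their UMIs, SPRR1B left out), 17 had a promoter, and 5 of these (29.4%) held TGANTCA on either strand. Of the 15 lowest genes 13 had a promoter and 0 of these held it, against 2120 of all 27305 promoters (7.76%). TATAAA was in 5 of the 17, in 0 of the 13 and in 12% of all promoters. A match is a run of letters and does not show that a factor binds there. The mRNAs of AP-1 subunits did not reach the 1.5-fold call: FOS stood at 527 CPM in positive and 560 CPM in negative cells, JUN at 332 CPM in positive and 476 CPM in negative cells, JUNB at 393 CPM in positive and 314 CPM in negative cells, and FOSL1 at 58.8 CPM in positive and 62.1 CPM in negative cells.

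Enzymes and inhibitors of the barrier were higher as well. Of 34 listed genes 16 reached 10 CPM, 8 only through positive cells, and 14 were higher; with the floor on both groups together 8 passed and 6 were higher. SLPI, an inhibitor of leukocyte elastase, had 777 CPM in positive and 179 CPM in negative cells (4.35-fold, 4.00 to 4.72), with a UMI in 168 of 221 positive and 587 of 1201 negative cells. PI3 stood at 213 CPM in positive and 20.6 CPM in negative cells (10.3-fold, 8.46 to 12.7). TGM1, the membrane transglutaminase that crosslinks the envelope, had 42.1 CPM in positive and 2.52 CPM in negative cells (16.7-fold, 9.71 to 30.2), but a UMI in 19 of 221 positive cells. SULT2B1, which makes cholesterol sulphate in differentiating keratinocytes, had 33.4 CPM in positive and 2.10 CPM in negative cells (15.9-fold, 8.73 to 30.7). KLK10, KLK5, KLK7 and KLK11 are kallikreins, serine proteases of which KLK5 and KLK7 cleave corneodesmosomes when squames are shed. KLK10 had 65 UMIs in 20 positive cells and 4 UMIs in 4 negative cells, an 84.3-fold ratio (31.4 to 319). FABP5, a carrier of fatty acids, and CSTB, an intracellular cystatin, were high in both groups, with FABP5 at 600 CPM in positive and 315 CPM in negative cells and CSTB at 985 CPM in positive and 506 CPM in negative cells.

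Antimicrobial S100 proteins and LCN2 belonged to the same side. S100A8, which forms calprotectin with S100A9, stood at 728 CPM in positive and 118 CPM in negative cells, 6.20-fold higher (5.65 to 6.80). S100A9 stood at 1438 CPM in positive and 377 CPM in negative cells, 3.82-fold higher (3.60 to 4.05). LCN2 (lipocalin 2, which binds bacterial siderophores) had 85.6 CPM in positive and 11.7 CPM in negative cells. S100P had 38.5 CPM in positive and 2.38 CPM in negative cells, with a UMI in 17 positive and 13 negative cells. Of 13 measured S100 genes 5 were higher (S100A4, S100A7, S100A8, S100A9 and S100P), 2 of which passed through positive cells alone. S100A2, at 23938 CPM in positive and 21330 CPM in negative cells, was 1.12-fold apart. Nor were all genes of the acute-phase and antimicrobial list higher. Of its 19 genes 11 reached 10 CPM, 1 only through positive cells, and 6 were higher. The list holds antimicrobial proteins as well, so its counts are not of acute-phase genes alone. SAA1 (serum amyloid A1), an acute-phase gene, stood at 756 CPM in positive and 883 CPM in negative cells.

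Proteins of desmosomes and suprabasal junctions differed by smaller folds but in more cells, and mostly at levels measured in both groups. Of 32 listed genes 23 reached 10 CPM, 2 only through positive cells, and 15 were higher and 0 lower. DSG3 (desmoglein 3) had 146 CPM in positive and 58.3 CPM in negative cells, 2.5-fold higher (2.10 to 2.97), with a UMI in 112 of 221 positive and 314 of 1201 negative cells. PKP1, a desmosomal plaque protein, had 176 CPM in positive and 80.4 CPM in negative cells (2.18-fold, 1.87 to 2.54), and PERP, a p63 target of stratified epithelia, 1323 CPM in positive and 702 CPM in negative cells (1.89-fold, 1.79 to 1.99). DSG1, the desmoglein of the upper epidermis, had 0.726 CPM in positive cells and no UMI in negative cells, while DSG2, that of simple and basal epithelia, stood at 79.1 CPM in positive and 76.9 CPM in negative cells. CLDN4, a tight junction claudin, had 148 CPM in positive and 30.9 CPM in negative cells (4.79-fold, 3.94 to 5.82). CDH1 (E-cadherin) had 108 CPM in positive and 57.2 CPM in negative cells (1.89-fold, 1.56 to 2.29).

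Serpins of clade B, intracellular protease inhibitors encoded mostly on chromosome 18, followed with 4 of 7 measured members higher, 2 of which passed through positive cells alone. SERPINB1 had 129 CPM in positive and 48.8 CPM in negative cells (2.65-fold, 2.20 to 3.18). SERPINB3 and SERPINB4 are near copies, so the 21.0 CPM of SERPINB3 in positive and 2.66 CPM in negative cells may mix both.

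Transcription factors of squamous differentiation were low and split. Of 33 listed genes 24 reached 10 CPM, 7 only through positive and 1 only through negative cells, and 12 were higher; with the floor on both groups 18 passed and 6 were higher. PRDM1 (BLIMP1, a factor of terminally differentiating keratinocytes) had 43.5 CPM in positive and 13.6 CPM in negative cells (3.21-fold, 2.29 to 4.47). EHF, an epithelial ETS factor, had 29 CPM in positive and 7.97 CPM in negative cells (3.64-fold, 2.37 to 5.55), and ZNF750, which acts downstream of p63 in keratinocytes, 16.7 CPM in positive and 2.66 CPM in negative cells (6.28-fold, 3.27 to 12.2). KLF4, a barrier factor of epidermis, did not differ by the call, with 68.9 CPM in positive and 73.3 CPM in negative cells. In the Notch pathway NOTCH3, a receptor, had 24.7 CPM in positive and 5.59 CPM in negative cells (4.41-fold, 2.71 to 7.15), whereas the Notch target HES1 had 169 CPM in positive and 186 CPM in negative cells; 2 of 9 measured members were higher, NOTCH3 having passed the floor through positive cells alone, and 1, the ligand JAG2, was lower.

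**Figure D3:**
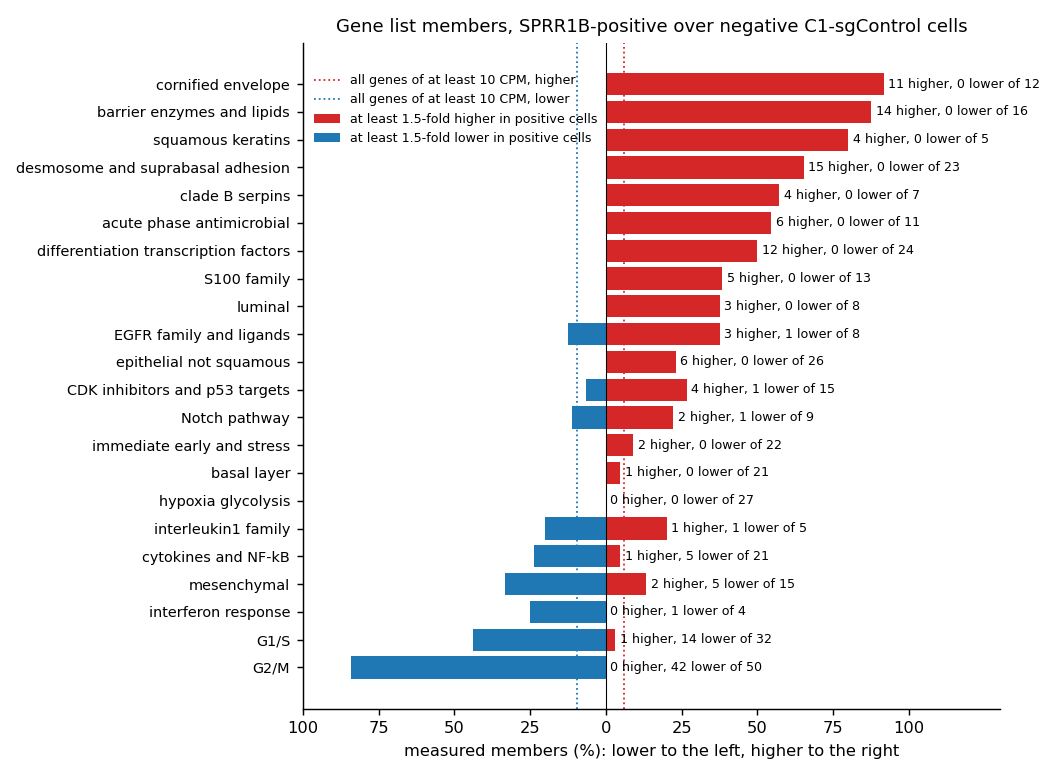
For each list with at least 4 genes of at least 10 CPM, the bars give the percentage of those genes that were at least 1.5-fold higher (red, to the right) or lower (blue, to the left) in positive cells, and dotted lines give the same for all 7789 genes (5.84% and 9.41%). Envelope, barrier and keratin lists are at the top, with 11 of 12, 14 of 16 and 4 of 5 genes higher. For the envelope and barrier lists this is partly because 11 and 8 genes passed the floor through positive cells alone. The G2/M list is at the bottom with 42 of 50 lower.

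Basal-layer genes stood near the level of negative cells. Of 22 basal-layer genes 21 reached 10 CPM, 1 only through positive cells, and 1 was higher and 0 lower. KRT14 stood at 1667 CPM in positive and 1479 CPM in negative cells, and KRT5, its partner, at 2859 CPM in positive and 2220 CPM in negative cells. TP63, the master factor of stratified epithelia, stood at 21.8 CPM in positive and 23.1 CPM in negative cells, and ITGB4, an integrin of hemidesmosomes, at 282 CPM in positive and 278 CPM in negative cells. The exception was KRT15, a keratin of basal cells, at 1047 CPM in positive and 328 CPM in negative cells (3.20-fold, 2.99 to 3.41), which stood at 672 CPM already in cells with 1 SPRR1B UMI. Mesenchymal genes leaned lower: of 15 measured, 1 only through negative cells, 5 were lower and 2 higher. VIM (vimentin) had 837 CPM in positive and 1186 CPM in negative cells, short of the call, but 462 CPM in the class with 6 or more SPRR1B UMIs. Among luminal genes 3 of 8 measured were higher (CD24, ALDH1A3 and SLPI), whereas KRT18 stood at 723 CPM in positive and 1031 CPM in negative cells. Of 13 immune markers only CD68, also a lysosomal gene of epithelial cells, reached 10 CPM (25.4 CPM in positive and 18.2 CPM in negative cells) and 7 had no UMI in either group. All 8 endothelial and 9 neural markers were below 10 CPM, and 6 and 2 of them had no UMI in either group. Endothelial markers summed to 0.726 CPM in positive and 0.280 CPM in negative cells, and neural markers to 6.53 CPM in positive and 3.77 CPM in negative cells.

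Genes of mitosis formed the largest group on the lower side. Of 53 G2/M genes 50 reached 10 CPM, 8 only through negative cells, and 42 were lower and 0 higher; their median log2 ratio was -1.04. MKI67, the proliferation antigen Ki-67, had 60.2 CPM in positive and 165 CPM in negative cells, 2.74-fold lower (2.19 to 3.46), with a UMI in 23 of 221 positive and 342 of 1201 negative cells. CCNB1 had 47.2 CPM in positive and 135 CPM in negative cells (2.86-fold lower, 2.22 to 3.74), and TOP2A (topoisomerase II alpha) 42.1 CPM in positive and 108 CPM in negative cells (2.56-fold lower, 1.96 to 3.41). FOXM1, a transcription factor of G2/M genes, had 7.26 CPM in positive and 21.1 CPM in negative cells (2.91-fold lower, 1.54 to 6.19). PRR11, a gene of the late cell cycle, was the lowest of all named genes with 3 UMIs in positive and 152 UMIs in negative cells. Of 42 G1/S genes 32 reached 10 CPM, 1 only through positive and 5 only through negative cells, and 14 were lower and 1 higher, at a median log2 ratio of -0.48; with the floor on both groups together 30 passed, and 13 were lower and 0 higher. MCM2, a subunit of the replicative helicase, had 3.63 CPM in positive and 14.1 CPM in negative cells. Of 18 CDK inhibitors and p53 targets 15 reached 10 CPM, 1 only through negative cells, and 4 were higher and 1 lower. The CDK inhibitor CDKN1A (p21) stood at 299 CPM in positive and 245 CPM in negative cells, below the call, and BTG2, an antiproliferative p53 target, at 68.9 CPM in positive and 36.2 CPM in negative cells (1.90-fold higher, 1.49 to 2.42).

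Mitotic UMIs were lower, not absent, in positive cells. After thinning to 2000 UMIs the median positive cell had 2 G2/M list UMIs and the median negative cell 3, whereas the 90th percentiles were 8 in positive and 19.0 in negative cells. So the lower sums lay mainly in the share of cells with many mitotic UMIs, and the highest positive cell had 29 of them against 48 in negative cells. The 90th percentile stood at 19.0, 10.7, 9, 5 and 4 UMIs in cells with 0, 1, 2, 3 to 5 and 6 or more SPRR1B UMIs. In cells at or under the median of cell cycle list UMIs (154 positive and 610 negative), 4 of the G2/M genes were lower, and 11 envelope, 13 barrier and 9 transcription factor genes were higher. The log2 ratio of FOXM1 was 0.03 there. This subset was chosen after the data were seen. It was also chosen on UMIs of the cell cycle lists, so its smaller differences in cell cycle genes are in part set by that choice.

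Most cytokines and genes of the NF-kB response did not pass the call. Of 21 measured, 5 were lower (CCL20, ICAM1, CXCL3, LTB and CSF2), 2 of which passed through negative cells alone, and 1 was higher (MMP9). LTB (lymphotoxin beta) had 101 CPM in positive and 230 CPM in negative cells, 2.28-fold lower (1.92 to 2.73), and stood at 230, 186, 138, 110 and 30.6 CPM over the classes from 0 to 6 or more SPRR1B UMIs. CXCL3, a neutrophil chemokine, had 61.7 CPM in positive and 122 CPM in negative cells (1.98-fold lower). Of 13 genes of the interleukin 1 family, listed apart, 5 reached 10 CPM, 1 only through positive cells, and 1 was higher and 1 lower. With the floor on both groups together 4 passed and 0 were higher. IL1RN, the receptor antagonist, which passed through positive cells alone, had 16.7 CPM in positive and 2.52 CPM in negative cells (6.63-fold higher, 3.42 to 13). IL1B had 112 CPM in positive and 170 CPM in negative cells (1.52-fold lower, 1.29 to 1.81). Of 27 genes of hypoxia and glycolysis, all of which reached 10 CPM, 1 only through positive cells, 0 were higher and 0 lower, and among 22 measured immediate-early and stress genes 2 were higher, the chaperones HSPB1 and DNAJB1.

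How far single cells went was read from 16 squamous markers other than SPRR1B. They were chosen with earlier results of these data known, so their levels describe the group and do not test its label. In summed counts 3 of them (KRT16, KRT6B and DSG3) reached 10 CPM in both groups, 10 in positive cells alone, and SPRR1A, KRT13 and SCEL in neither. The median positive cell had a UMI of 2 markers and the median negative cell of 1, and after thinning 71.0% of positive and 37.1% of negative cells had any. At least 6 markers were found in 15 of 221 positive cells and in 0 of 1201 negative cells, which allows a share of up to 0.250% of them, and in 1 of the 214 cells with 1 SPRR1B UMI. Such cells ranged from 6 to 12 markers, and the cell with 12 had 341 marker UMIs among 7167 UMIs and 43 of SPRR1B. Of the cells with 6 or more SPRR1B UMIs, 13 of 52 had at least 6 markers. A broad set of markers was thus seen in a minority of positive cells. At these depths a cell without a marker's UMI may still express it.

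The 15 cells with at least 6 markers were chosen on markers that include KRT16 and TGM1, so lower ratios of squamous genes without them are in part set by that choice. Without these cells KRT16 had a log2 ratio of 2.31 in place of 3.60, S100A8 2.11 in place of 2.62, KLK10 2.83 in place of 4.95 and TGM1 2.69 in place of 3.61. Higher envelope genes numbered 6 in place of 11, barrier genes 8 in place of 14 and transcription factors 6 in place of 12, while 41 of the G2/M genes were still lower. The 5 cells with most UMIs gave 40.3% of the KRT16 UMIs in positive cells, 22.7% of those of SLPI and 26.7% of those of KRT6B, but 95.5% of those of SPRR2E and 100% of those of SPRR3.

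**Figure D4:**
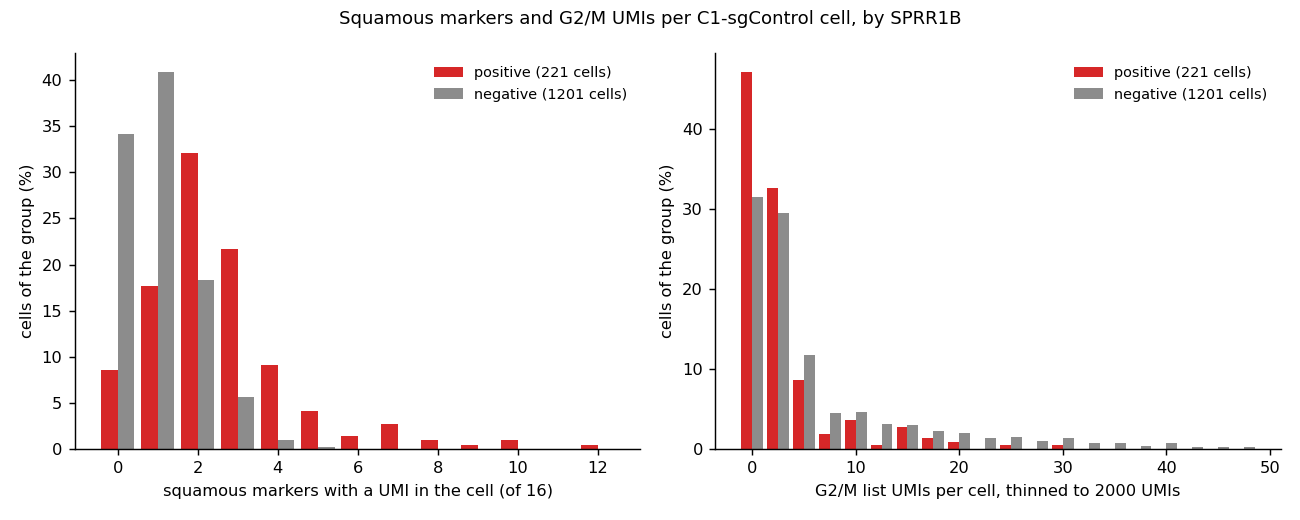
Left, the percentage of positive (red) and negative (grey) C1-sgControl cells by the number of 16 squamous markers with a UMI; right, the same cells by their G2/M list UMIs after thinning to 2000 UMIs, in bins of 2.5. At least 6 markers occur in 15 of 221 positive cells and in 0 of 1201 negative cells, and the 90th percentile of G2/M UMIs is 8 in positive and 19.0 in negative cells.

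Many of these genes sit in clusters in the genome, given here from GENCODE v29 on GRCh38. The epidermal differentiation complex, taken from S100A10 to S100A13 on chromosome 1 (151982915 to 153631360), holds 67 genes of the matrix, 19 of which reached 10 CPM. Of these 10 were higher and 0 lower, 8 having passed through positive cells alone, and of the 11 that passed in negative cells 3 were higher. The measured genes from IVL to S100A7 were all higher, as were CRCT1 and S100A4, whereas S100A10 (6092 CPM in positive and 5167 CPM in negative cells) and S100A6 (12144 CPM in positive and 8863 CPM in negative cells) were not. In the kallikrein cluster on chromosome 19 (KLK1 to KLK14) 4 of 22 genes reached 10 CPM, all through positive cells. In the desmosomal cadherin cluster on chromosome 18, DSC2, DSC3 and DSG3 were higher and DSG2 was not. In the type II keratin cluster on chromosome 12, KRT81 (480 CPM in positive and 160 CPM in negative cells, 3.00-fold, 2.72 to 3.30) joined KRT6A and KRT6B, whereas KRT5, KRT7, KRT8 and KRT18 did not; KRT81 belongs to the hair keratins, which resemble each other closely. These windows were chosen after the values were seen.

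The same split in the knockout lines used cells that the choice of genes did not. Only cells with more epithelial than mesenchymal list UMIs were compared, which left 37 positive and 960 negative C1-sgEED cells and 16 positive and 919 negative C1-sgKMT2D cells. Unlike in C1-sgControl, positive cells were deeper. Median depths were 5661 UMIs in positive and 4461 in negative C1-sgEED cells, and 8490.5 in positive and 7024 in negative C1-sgKMT2D cells. The part of depth here was not tested. In C1-sgEED, 15 of the 15 genes highest in C1-sgControl were higher and 15 of the 15 lowest were lower, where 9.54% of the 5327 genes were higher and 24.8% lower. In C1-sgKMT2D, 10 of the 15 highest were higher and 13 of the 15 lowest lower, where 11.2% of genes were higher and 26.6% lower. Another 3 of the 15 highest were called lower there (LCN2, TGM1 and IVL), each with 0 UMIs in positive cells. All cells of each line, with no such choice, gave 15 and 15 in the EED knockout and 9 and 13 in the KMT2D knockout. Among the epithelial cells, the interval of the ratio lay above 1 for 15 of the 15 highest genes in C1-sgEED and 9 in C1-sgKMT2D. It lay below 1 for 11 of the 15 lowest genes in C1-sgEED and 7 in C1-sgKMT2D. These groups are small: in the 16 positive C1-sgKMT2D cells 1 UMI is worth 6.42 CPM, and a count of 0 allows up to 19.2 CPM.

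Both lines had the keratin part. KRT16 stood at 2861 CPM in positive and 217 CPM in negative C1-sgEED cells (13.2-fold, 12 to 14.5) and at 3093 CPM in positive and 337 CPM in negative C1-sgKMT2D cells (9.18-fold, 8.30 to 10.1). KRT6B was 11.6-fold higher in positive C1-sgEED cells (9.84 to 13.7) and 13.3-fold higher in positive C1-sgKMT2D cells (11.1 to 15.8), and SLPI was 5.88-fold higher in C1-sgEED (5.03 to 6.85) and 3.99-fold higher in C1-sgKMT2D (3.33 to 4.75). DSG3 was 3.98-fold higher in C1-sgEED (2.75 to 5.62) and 2.67-fold higher in C1-sgKMT2D (1.72 to 3.97). CCNB1 was lower in both, with 25.5 CPM in positive and 264 CPM in negative C1-sgEED cells and with 64.2 CPM in positive and 199 CPM in negative C1-sgKMT2D cells. KRT14, level in the control line, was 2.15-fold higher in positive C1-sgEED cells (1.89 to 2.44) and 2.20-fold higher in positive C1-sgKMT2D cells (1.93 to 2.5).

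Antimicrobial and envelope genes were mostly higher in C1-sgEED and mixed in C1-sgKMT2D, which has the fewest positive cells. PI3 had 238 CPM in positive and 7.90 CPM in negative C1-sgEED cells (30.2-fold, 19.6 to 46.9), against 1 UMI (6.42 CPM) in positive and 9.18 CPM in negative C1-sgKMT2D cells (0.699-fold, 0.0174 to 4.04). S100A9 had 2192 CPM in positive and 207 CPM in negative C1-sgEED cells (10.6-fold, 9.52 to 11.8), and 860 CPM in positive and 555 CPM in negative C1-sgKMT2D cells (1.55-fold, 1.29 to 1.84). S100A8 had 1068 CPM in positive and 54.4 CPM in negative C1-sgEED cells (19.6-fold, 16.4 to 23.4), and 500 CPM in positive and 161 CPM in negative C1-sgKMT2D cells (3.10-fold, 2.43 to 3.91). Low genes that were also higher in C1-sgKMT2D were S100P, with 9 UMIs in positive cells (11.6-fold, 4.89 to 24.8), CALML5, a calmodulin-like protein of differentiating keratinocytes, with 7 (99.4-fold, 22.7 to 596), SULT2B1 with 4 (42.6-fold, 7.94 to 229) and SPRR2D with 2 (12.2-fold, 1.23 to 64). LCN2, KLK10, TGM1 and IVL had UMIs in positive C1-sgEED cells, at 192, 115, 29.8 and 29.8 CPM. Positive C1-sgKMT2D cells had none, and negative C1-sgKMT2D cells stood at 0.452 to 1.05 CPM. By counting error alone, a count of 0 there allows up to 19.2 CPM. The 4 C1-sgEED levels rest on 45, 27, 7 and 7 UMIs and have counting error of their own. Differences under that limit between positive and negative C1-sgKMT2D cells were not detectable at this depth. Of the 12 measured envelope genes C1-sgEED had 11 higher and C1-sgKMT2D 2. Of the 11 measured genes of the acute-phase and antimicrobial list C1-sgEED had 8 higher and C1-sgKMT2D 3. Summed over its list, the envelope level in C1-sgKMT2D was 513 CPM in positive and 214 CPM in negative cells, most of it CSTA. The sum over the acute-phase and antimicrobial list there was 2355 CPM in positive and 1050 CPM in negative cells. Whether the lines differ in this beyond the sampling of 37 and 16 cells, or beyond the clones they come from, was not tested.

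**Figure D5:**
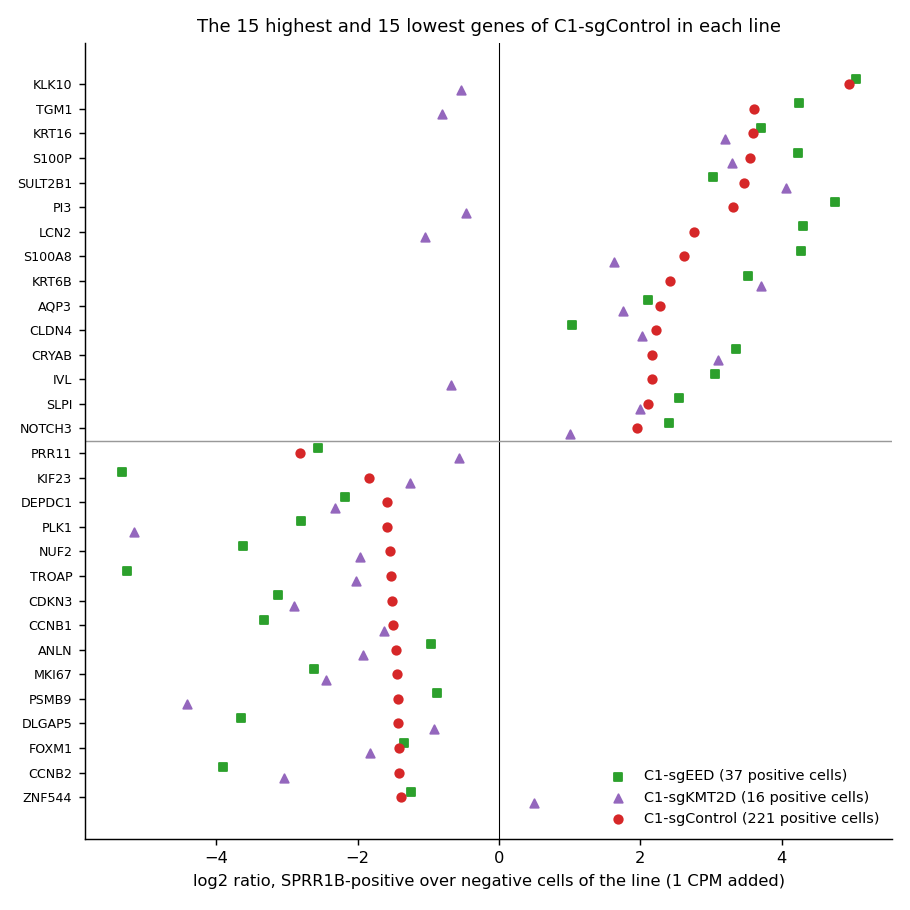
Log2 ratios (1 CPM added) of SPRR1B-positive over negative cells for the 15 highest and 15 lowest genes of C1-sgControl, in C1-sgEED (squares, 37 positive cells), C1-sgKMT2D (triangles, 16) and C1-sgControl (circles, 221, which chose the genes). C1-sgEED follows C1-sgControl on both sides, and in C1-sgKMT2D KLK10, TGM1, PI3, LCN2 and IVL, with 0 or 1 UMI in the positive cells, are drawn below 0 while KRT16 and KRT6B lie above 3.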

How the data were processed

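The gene expression and hashtag counts of 3 pooled lines were used as 1 matrix. The deposited values are raw UMI counts (whole numbers) per barcode for each gene and hashtag. Cell Ranger 3.0.2 made them, per the file headers, on GRCh38, per the submitters' processing notes; the gene annotation they used is not stated there. Per the labels, hashtag 1 marks C1-sgControl, hashtag 3 C1-sgEED and hashtag 4 C1-sgKMT2D. Cells of hashtag 2, which the labels do not name, enter no comparison.

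Of 10336 barcodes with 33694 genes, a barcode was given to a line where its top hashtag had at least 150 UMIs and 10 times the next, and was kept with at least 500 genes, at most 20% mitochondrial UMIs and at least 2000 UMIs. For C1-sgControl 696 of 2332 barcodes were left out, 594 of them over the mitochondrial limit. No doublet caller was run: 801 filtered barcodes whose next hashtag passed 0.1 of the top one were left out, and 272 doublets of a single hashtag (3.45%) were expected among the cells of all 4 hashtags and stay in. The lines' medians were 4081 to 5818.5 UMIs per cell, and each line's total of 9829794 to 13754773 UMIs sets the counting error.

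UMIs were summed per group and scaled to CPM. No p-value or standard error was computed, because a line is a single sample and its cells do not replicate it. Ratios have exact conditional binomial, levels exact Poisson and shares exact Clopper-Pearson intervals (95%). Where a group had 0 UMIs, 3 counts for the whole group gave the lower bound of the ratio. Thinning drew 2000 UMIs per cell without replacement (seed 1). Genes named are the 15 highest and 15 lowest by log2 ratio with at least 20 CPM, at least 20 UMIs and at most 20% of UMIs from 1 cell, plus list members of at least 10 CPM; other members and genes were chosen after their values were seen. The members, the 25 lists and the markers were chosen with earlier results of these data known. Promoters are from RefSeq (GRCh38.p14). The ratio intervals were tested on simulated counts. Python 3.11.15, numpy 2.4.6, scipy 1.17.1 and pandas 2.3.3 were used.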

Additional observations from a re-analysis of the deposited data

How the results depend on the processing

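Most choices moved how many genes passed 1.5-fold more than which side they were on. Of 600 ratios of the 30 named genes over 20 settings, 501 moved by less than the counting interval, 98 moved by more, and 1 changed sign. That was FOXM1, with a log2 ratio of 0.03 in cells at or under the median of cell cycle list UMIs. Settings that change only the floor (50 CPM, 5 CPM, both groups together) cannot change a ratio, so theirs are among the 501 by design. Higher and lower genes numbered 98 and 150 with at least 1 SPRR1B UMI for positive cells, 419 and 726 with at least 3, 651 and 1121 with at least 5, 520 and 653 with thinned cells, 87 and 119 at 50 CPM, and 707 and 1113 at 5 CPM. There were 368 higher genes with mitochondrial, ribosomal and SPRR1B UMIs left out of the total, 254 lower genes when centred, and 128 higher genes with the floor on both groups. Higher transcription factors numbered 7 with at least 1 UMI and 2 at 50 CPM; higher envelope and barrier genes numbered 4 and 6 at 50 CPM. With positive cells of 2 to 5 UMIs, 5 envelope, 6 barrier and 5 transcription factor genes were higher. With the floor on both groups these were 4, 6 and 6, and without cells of at least 6 markers 6, 8 and 6. Lower G2/M genes numbered 24 with at least 1 UMI, 22 at 50 CPM and 4 in cells low in cell cycle UMIs, and lower G1/S genes 22 with at least 5 UMIs, 3 at 50 CPM and 7 in those cells. Thinned shares of positive cells were 0.876%, 0.0900% and 5.99% in C1-sgEED, C1-sgKMT2D and C1-sgControl. The cause of these moves was not tested, except that a higher floor leaves fewer genes to call. Cells low in cell cycle UMIs were chosen on those lists, which in part sets their ratios of cell cycle genes. No paired analysis was possible because each line is 1 sample. Settings from 2 to 5 UMIs, the floor on both groups, the cells low in cell cycle UMIs, the epithelial cells and the cells without 6 markers were added after the data were seen. A gene at 20 CPM has few UMIs in 221 cells, so depth limits the low envelope genes and transcription factors.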

Other observations

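Cells that the labels put in no line also held SPRR1B. Among cells of hashtag 2, 50 of 1855 had at least 2 SPRR1B UMIs (2.70%, interval 2.01 to 3.54), and the level was 26.9 CPM. Among filtered barcodes without a single hashtag, 51 of 806 were positive (6.33%, interval 4.75 to 8.24), at a median depth of 8428 UMIs.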
